A study of Homo sapiens with 6 samples.

Results

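The genes described here build the route by which proteins enter the endoplasmic reticulum and move on between it and the Golgi. They are 54 named genes of protein translocation and of COPI and COPII vesicle transport, listed by what their proteins do and not by a measured value. The list was, however, chosen with earlier results of these data known. Rows were matched by gene symbol, including the older symbols SRPR (now SRPRA) and COPG (now COPG1). Of the 54 genes, 53 were found among the 17990 genes of the table, and 52 averaged at least 20 counts per library and were called measured. SEC16A was not analysed here, and COPZ2 fell below the minimum. Messenger RNA was read in 6 libraries of LNCaP, a line of human prostate carcinoma cells that carries an androgen receptor, all kept for 3 days in medium with charcoal-stripped serum. The DHT groups were cells given 10 nM dihydrotestosterone (DHT), the potent androgen, for 3, 6, 12, 24 or 48 h, and the untreated group was taken at 0 h. Each group was 1 library of 1 cell line, so no difference has a replicate check and none was tested. No untreated library from a later time was used here, so the hours in culture and DHT cannot be told apart.

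Proteins bound for secretion or for membranes are recognised at the ribosome by the signal recognition particle (SRP), which docks on its receptor at the endoplasmic reticulum. The Sec61 channel then takes the growing chain through or into the membrane, with the help of the translocon-associated protein (TRAP) complex, and signal peptidase cuts off the signal peptide. COPII coats bud vesicles that carry cargo towards the Golgi, and COPI coats, recruited by ARF GTPases, return escaped residents and receptors. Prostate luminal cells secrete large amounts of protein, kallikreins among them, along this route.

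Libraries held 13179917 to 20587956 counts over the listed transcripts, and levels are given as CPM, the share of a library's listed counts scaled to a common total. FKBP5 and KLK3, known androgen targets, checked the treatment. FKBP5 had 2286 CPM at 24 h, against 59.0 CPM at 0 h, and KLK3 had 10012 CPM, against 4727 CPM. The 8 prostate luminal markers summed to 8423 CPM at 0 h and to between 9651 and 22043 CPM in the DHT libraries, with none at 0. The 3 basal epithelial markers summed to 0.332 to 0.895 CPM and the 4 leukocyte markers to 0.0746 to 0.228 CPM. The 4 fibroblast markers summed to 31.4 to 64.7 CPM, of which COL1A1 made up 31.2 to 64.3 CPM. Levels in the 12 h library were set against the mean of each gene's 6 h and 24 h levels. The genes of chromosome 4 had a median of 10.4% of that mean and those of distal chromosome 15 a median of 8.04%, against 104% for the 11070 other genes. The 12 h values of the 6 measured members in those regions (SRP72, SPCS3, SEC24B, SEC24D, SEC31A and SEC11A) were therefore left out, which left 46.

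Change is given as log2 of CPM + 1 in a DHT library over CPM + 1 in untreated cells, a scale that understates the change of low genes. At least 2-fold is used as the mark of size. At 24 h 29 of 52 members (55.8%) were at least 2-fold higher than at 0 h and none was 2-fold lower. Over the 11916 genes with at least 20 counts on average, 10.5% were 2-fold higher at 24 h and 10.8% were 2-fold lower. The median log2 change at 24 h was 1.06 over the members and -0.09 over all genes. Above 0 lay 46 of the 52 members, against 5443 of the 11916 genes. With median-of-ratios scaling these 2 medians were 1.21 and 0.06, and the split of all genes at 24 h was 1640 higher and 982 lower in place of 1249 and 1287. The libraries are bulk RNA, in which more cells with a transcript and more of it per cell cannot be told apart.

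The members' difference from untreated cells was small at 3 h and largest at 24 h. At 3 h none of 52 was 2-fold higher or lower, where 0.747% of all genes were higher and 0.864% lower, and the members' median log2 change was 0.02. By 6 h 10 members (19.2%) were 2-fold higher, against 15.3% of all genes, a share near the background. At 12 h the count was 15 of 46 (32.6%), against 11.6% of all genes. At 48 h it was 20 of 52 (38.5%), against 15% of all genes, with a median of 0.80. None was 2-fold lower at 6, 12 or 48 h, where 3.01%, 3.86% and 7.33% of all genes were. The 10 members past 2-fold at 6 h were all past it at 24 h too, an overlap that was not counted over all genes. After the adjustment for GC content described below, 1 of 51 members was past 2-fold at 6 h, against 3.8% of all genes. Of the members, 19 were past 2-fold at both 24 h and 48 h, against 9.36% of all genes (5.75% of all genes were lower at both), and 10 were past it at 24 h and not at 48 h. SRP9 was the 1 member past 2-fold at 48 h and not at 24 h. The 24 h library held the highest level of 34 of the 52 members, a count that was not made over all genes. At 48 h 42 members (80.8%) were lower than at 24 h, against 40.1% of all genes. That step was small: the median level at 48 h was 0.852 of the level at 24 h over the members and 1.06 of it over all genes.

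**Figure D1:**
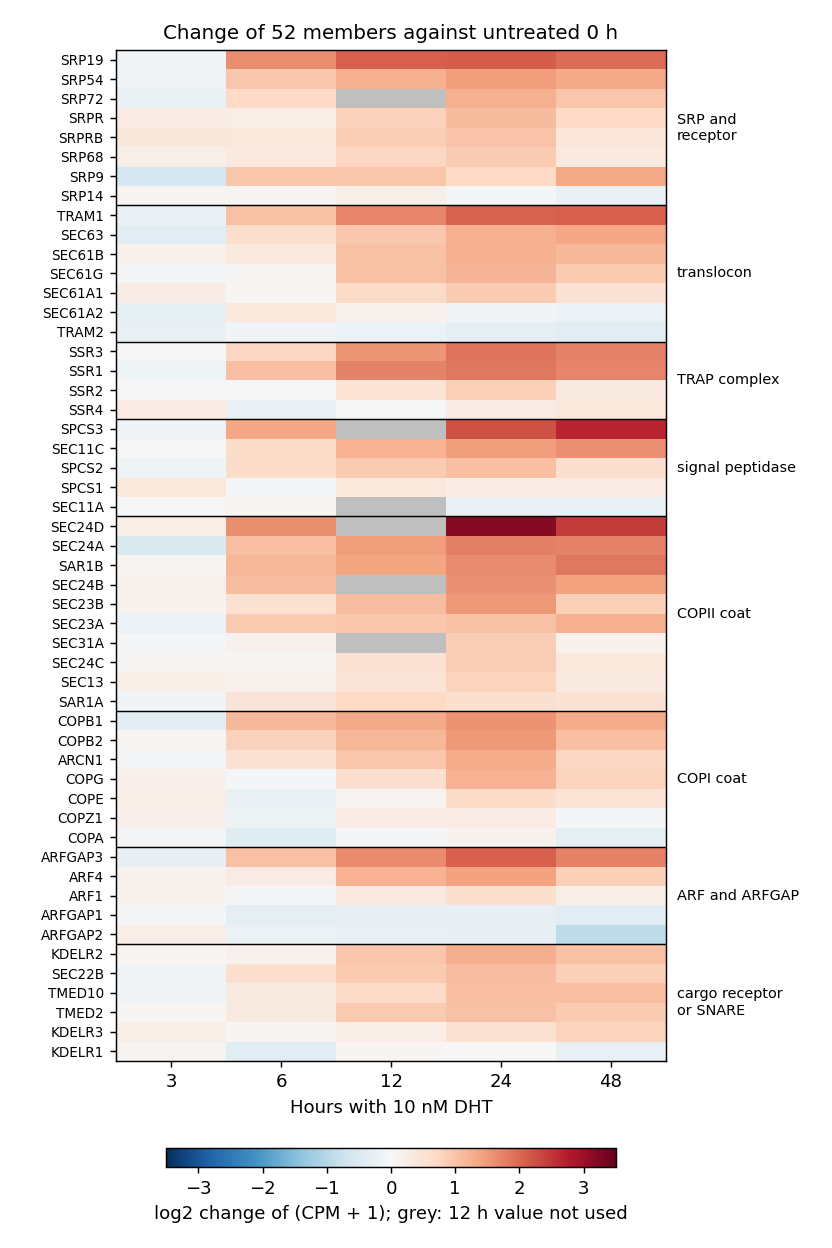
Colour gives the log2 change of CPM + 1 against untreated 0 h for the 52 measured members (rows, grouped by role and ordered by change at 24 h) after 3 to 48 h with 10 nM DHT (columns). Grey cells are 12 h values not used. The 29 members past 2-fold at 24 h lie in all 8 role groups, and the darkest cell is SEC24D at 24 h with 3.20.

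Change in these libraries moved with the GC content of the transcript, that is, with its share of G and C bases. Over the 11140 genes with a GC value, Pearson's r between GC content and log2 change was 0.231 at 3 h, -0.739 at 6 h, -0.515 at 24 h and -0.558 at 48 h, and -0.616 over the genes used at 12 h. Over the 51 members with a value (SEC23B had none) it was 0.62, -0.70, -0.55 and -0.62 at 3, 6, 24 and 48 h, and -0.70 over 45 of them at 12 h. The sign at 3 h was thus opposite to that of the later libraries. These are descriptions across genes that share libraries. The members were poorer in GC, with a median of 44.6% against 49.5% for all genes. Among transcripts under 42% GC, 17 of 19 members (89.5%) were 2-fold higher at 24 h, against 27.2% of all such genes. Between 42 and 50% GC the count was 8 of 15 (53.3%) at 24 h, against 9.94%, and above 50% GC it was 3 of 17 (17.6%), against 3.07%. At 6 h 6 of the 19 members under 42% GC (31.6%) were 2-fold higher, against 48.5% of all such genes. After the trend on GC content was taken out of each library by a lowess curve, 25 of 51 members (49.0%) were 2-fold higher at 24 h, against 7.09% of all genes. The same step left 0 of 51 at 3 h, against 0.943%, 1 of 51 at 6 h, against 3.8%, 4 of 45 at 12 h, against 4.15%, and 10 of 51 (19.6%) at 48 h, against 7.15%. No member was 2-fold lower on that scale, where 0.431%, 1.56%, 3%, 6.58% and 4.82% of all genes were at 3, 6, 12, 24 and 48 h. On it 10 members were higher at both 24 h and 48 h, against 5.21% of all genes, and none lower at both, against 3.53%. These 10 were SRP19, SEC61B, SSR1, SPCS3, SEC11C, SEC24B, SEC24D, SAR1B, COPG and ARFGAP3. Of the 28 GC-measured members called at 24 h before the step, 18 were called after it, 10 were not, and 7 others came in. The part of GC content in each gene's change was not tested, so GC-adjusted values are given for the members below.

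**Figure D2:**
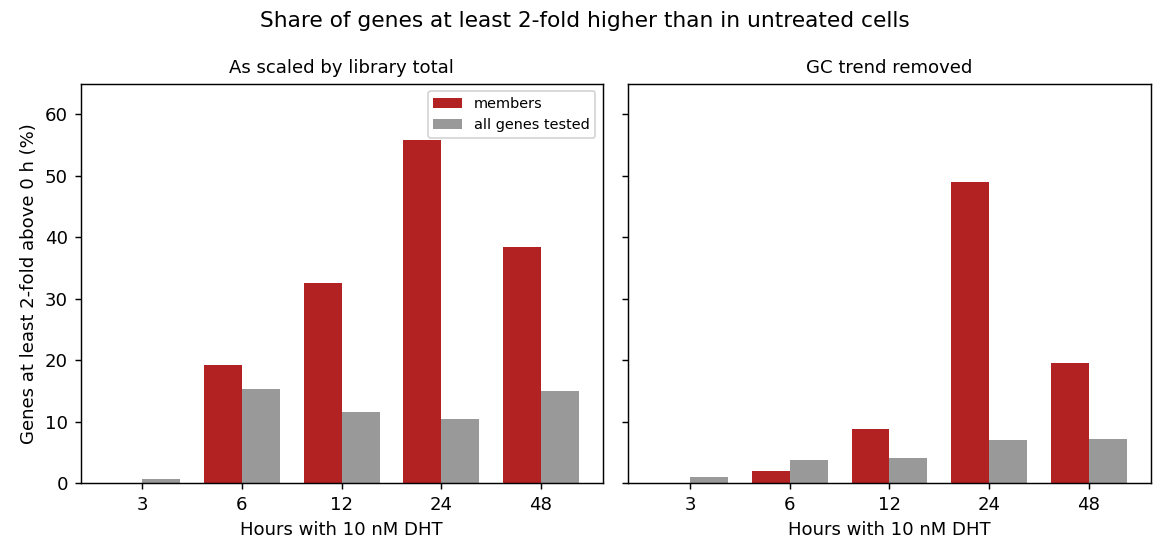
Bars give the percentage of genes at least 2-fold higher than in untreated cells at each time with 10 nM DHT, for the members (red) and for all genes tested (grey), as scaled by library total (left) and with the GC trend removed (right). The members' bar stands at 55.8% and 49.0% at 24 h in the 2 panels, while at 6 h with the trend removed it is below the bar of all genes.

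**Figure D3:**
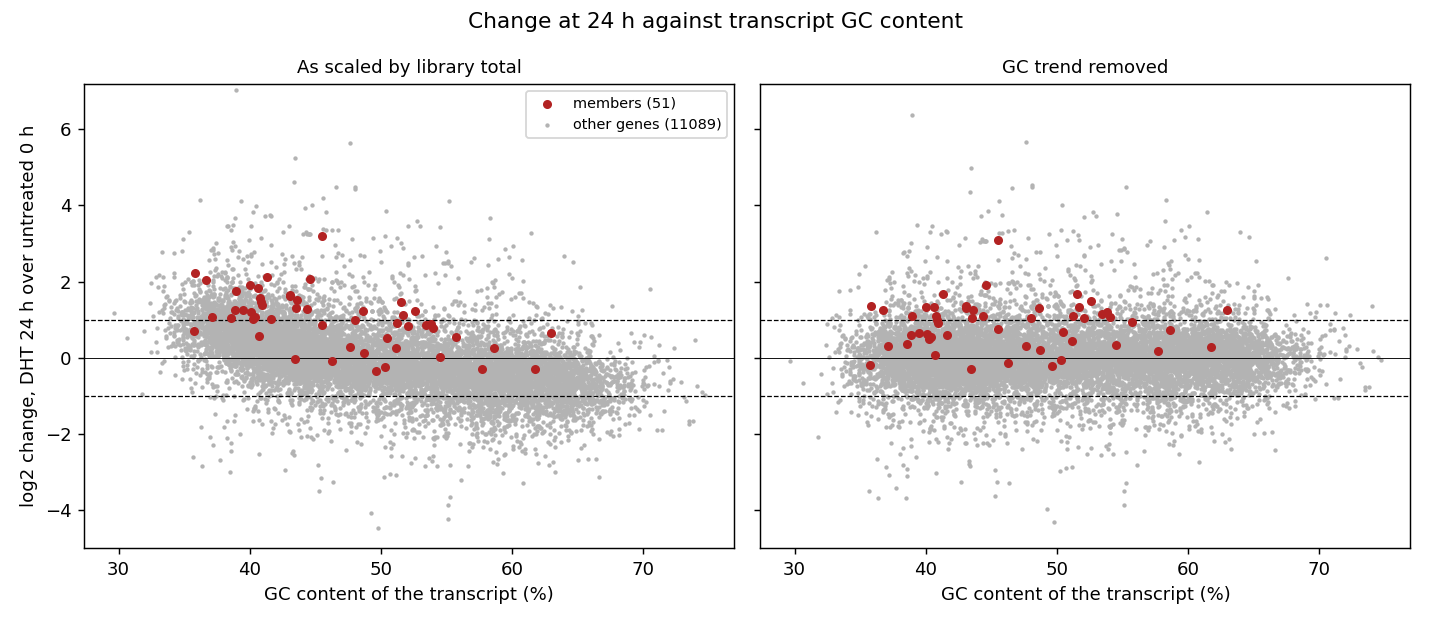
Each point is a gene, with the GC content of its transcript in percent on the x axis and its log2 change at 24 h over untreated 0 h on the y axis, before (left) and after (right) removal of the GC trend. Members are red, other genes grey, and dashed lines mark 2-fold. Of the 51 members, 25 lie above the upper dashed line on the right.

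For 17 measured members RefSeq names pseudogenes, found here by symbol, among which the counting could have split reads. They are SEC61G, SEC63, SSR1, SSR4, SRP9, SRP14, SRP68, SRP72, SPCS2, SEC13, SEC22B, SEC24A, SAR1A, ARF1, ARF4, TMED2 and TMED10. The values of these genes are uncertain to that extent. Of the 17, 11 were past 2-fold at 24 h or 48 h, against 30 of all 52 measured members. Over all genes 10.5% were 2-fold higher at 24 h and 15% at 48 h, and the share at either time was not counted.

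Of the 8 measured genes of SRP and its receptor, 4 were 2-fold higher at 24 h and 3 at 48 h. SRP19, the subunit that prepares SRP RNA to take up SRP54, had 15.3, 13.9, 49.4, 68.7, 69.5 and 62.5 CPM at 0 h and after 3, 6, 12, 24 and 48 h. It was near its untreated level at 3 h and high in all later libraries, 4.56-fold (95% interval 3.93 to 5.31) over 0 h at 24 h. Its GC-adjusted log2 change was 1.67 at 24 h and 1.35 at 48 h. SRP54, the GTPase that binds the signal peptide, had 53.6, 49.4, 104, 129, 150.3 and 137 CPM over the same times, and its GC-adjusted change was 0.98 at 24 h and 0.66 at 48 h, under the 1.47 and 1.34 before that step. SRP72, which anchors SRP68 on the RNA, had 83.5, 70.4, 137, 199.8 and 165 CPM at 0, 3, 6, 24 and 48 h. Its log2 change at 24 h was 1.25, and 0.59 after GC adjustment. Transcripts of the receptor's alpha subunit, SRPR, stood at 216, 266, 254, 377, 468 and 349 CPM at 0 h and after 3, 6, 12, 24 and 48 h, 2.17-fold over 0 h at 24 h. Unlike SRP72, SRPR had a larger change after GC adjustment, 1.33 against 1.11. The membrane subunit of the receptor, SRPRB, changed by 0.99 at 24 h, just inside 2-fold, and by 1.05 with GC adjustment. SRP9, which with SRP14 holds back elongation, had 22.5, 14.7, 43.8, 45.0, 37.0 and 57.4 CPM at these 6 times. Its log2 changes of 0.69 at 24 h and 1.32 at 48 h became -0.18 and -0.04 with the GC trend removed. Its partner SRP14 changed by -0.03 at 24 h and -0.25 at 48 h, or by -0.29 and -0.59 with GC adjustment. The 2 genes of this dimer thus had unlike values in the same libraries before that step and closer values after it. SRP68 changed by 0.90 at 24 h and 0.35 at 48 h, or by 1.10 and 0.60 with GC adjustment.

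In the translocon group 4 of 7 genes were 2-fold higher at 24 h and 3 of 7 at 48 h. The channel's subunits differed in size of change. SEC61A1, the pore itself, had 725, 861, 743, 1148, 1342 and 1031 CPM at 0 h and after 3, 6, 12, 24 and 48 h. That was 1.85-fold (1.81 to 1.90) at 24 h, a log2 change of 0.89, or 1.19 with GC adjustment. SEC61B, the small subunit beside it, had 76.2, 82.5, 97.3, 157, 181 and 168 CPM, 2.37-fold over 0 h at 24 h, with GC-adjusted changes of 1.32 at 24 h and 1.24 at 48 h. SEC61G, the clamp subunit, had 50.2, 48.5, 51.6, 103, 116 and 95.1 CPM, with the step between 6 h and 12 h, and its GC-adjusted change was 0.64 at 24 h and 0.13 at 48 h. The paralog SEC61A2 stayed between 11.5 and 19.7 CPM, with 14.9, 11.5, 19.7, 16.7, 14.04 and 12.8 CPM in order of time. GC adjustment gave it changes of -0.13 at 24 h and -0.27 at 48 h. SEC63, a J-domain protein that couples the channel to the chaperone BiP, had 57.3, 43.5, 88.7, 112, 138 and 147 CPM, with GC-adjusted changes of 0.65 at 24 h and 0.47 at 48 h. TRAM1, a membrane protein that lies next to nascent chains in the channel, had 55.5, 46.9, 114, 183, 234 and 239.9 CPM at 0 h and after 3, 6, 12, 24 and 48 h. It was 4.21-fold (3.90 to 4.56) over untreated cells at 24 h and 4.33-fold at 48 h. Its change at 6 h, 1.03, was -0.19 after GC adjustment, which left 1.25 at 24 h and 0.86, inside 2-fold, at 48 h. TRAM2 had 41.1, 34.4, 38.5, 35.4, 32.2 and 31.5 CPM and so was lower in every DHT library than at 0 h. Its changes of -0.35 at 24 h and -0.37 at 48 h were -0.22 and -0.21 after GC adjustment.

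Within the TRAP complex, whose 4 subunits bind one another and the channel, 2 genes were past 2-fold at both late times. SSR1 had 109, 97.8, 228, 369.9, 395 and 362 CPM at 0 h and after 3, 6, 12, 24 and 48 h, 3.61-fold (3.41 to 3.82) over 0 h at 24 h. SSR3 had 121, 122, 201, 354, 454 and 402 CPM, 3.76-fold (3.56 to 3.96) at 24 h. Both were flat at 3 h and at least 2-fold higher at 24 h and 48 h. After GC adjustment SSR1 stood at 1.33 at 24 h and 1.01 at 48 h, and SSR3 at 1.34 and, inside 2-fold, 0.93. SSR2 changed by 0.82 at 24 h and SSR4 by 0.26, or by 1.05 and 0.74 after GC adjustment.

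Signal peptidase had 3 of 5 genes past 2-fold at 24 h. SPCS3, a subunit needed for its activity, had 13.7, 12.6, 36.3, 68.4 and 91.6 CPM at 0, 3, 6, 24 and 48 h. Its 6.67-fold difference at 48 h (5.71 to 7.84) was the largest of any member at that time, and its GC-adjusted change was 1.36 at 24 h and 1.31 at 48 h. The enzyme has alternative catalytic subunits, SEC11A and SEC11C. SEC11C had 53.3, 54.1, 83.5, 126, 149.6 and 163 CPM at 0 h and after 3, 6, 12, 24 and 48 h, while SEC11A had 118, 118, 126, 100.4 and 99.9 CPM at 0, 3, 6, 24 and 48 h. SEC11C was thus higher in each library from 6 h on and SEC11A slightly lower at the 2 late times. GC adjustment gave 1.68 at 24 h and 1.85 at 48 h for SEC11C, and -0.07 and -0.03 for SEC11A. SPCS2, an accessory subunit, had 16.2, 14.4, 25.8, 31.5, 34.5 and 24.6 CPM, 2.14-fold at 24 h, with GC-adjusted changes of 0.37 at 24 h and -0.41 at 48 h. SPCS1 changed by 0.25 at 24 h and 0.29 at 48 h, or by 0.44 and 0.53 with GC adjustment.

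COPII genes had 6 of 10 past 2-fold at 24 h and 5 of 10 at 48 h, with a median change of 1.27 at 24 h. SEC24 subunits pick the cargo and SEC23 subunits bind SEC24 and switch on hydrolysis by SAR1. SEC24D showed the largest difference of any member, with 23.7, 27.5, 76.1, 226 and 133 CPM at 0, 3, 6, 24 and 48 h. It was 9.50-fold (8.47 to 10.7) over untreated cells at 24 h and 5.62-fold (4.99 to 6.35) at 48 h. With GC adjustment its log2 changes were 3.10 and 2.31, close to the 3.20 and 2.44 without it. Its level at 48 h was 0.591 of that at 24 h. SEC24A, the paralog grouped with SEC24B by sequence, had 36.8, 25.8, 76.9, 103, 127 and 126 CPM at 0 h and after 3, 6, 12, 24 and 48 h. SEC24B had 35.9, 39.0, 77.4, 112 and 96.3 CPM at 0, 3, 6, 24 and 48 h. These 2 genes were alike in level of change, 3.45-fold and 3.11-fold at 24 h. With GC adjustment SEC24A changed by 1.11 at 24 h and, inside 2-fold, by 0.81 at 48 h, and SEC24B by 1.32 and 1.01. SEC24C, which pairs with SEC24D by sequence, had 297, 304, 306, 426, 537 and 386 CPM, a log2 change of 0.85 at 24 h, or 1.14 with GC adjustment.

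Of the SEC23 genes, SEC23B had 219.7, 241, 320.1, 468, 627 and 391 CPM at 0 h and after 3, 6, 12, 24 and 48 h. It peaked at 24 h, 2.86-fold (2.74 to 2.97) over 0 h. SEC23A had 61.5, 52.9, 118, 120.1, 127 and 147 CPM. Its log2 changes at 6, 12, 24 and 48 h were 0.93, 0.96, 1.03 and 1.24, and with GC adjustment they were 0.21, 0.35, 0.61 and 0.67, so the step seen at 6 h was small on that scale. The GTPase SAR1 starts each coat. SAR1B had 33.2, 35.2, 75.0, 88.5, 106 and 123 CPM and was higher in each later library than in the one before, 3.69-fold (3.33 to 4.11) over 0 h at 48 h, with 1.46 left after GC adjustment. SAR1A had 95.3, 89.7, 130.3, 155, 141 and 136 CPM, and its log2 change of 0.56 at 24 h was 0.06 after GC adjustment. Of the outer coat genes, SEC13 changed by 0.77 at 24 h and 0.32 at 48 h, and SEC31A by 0.86 and 0.15. GC adjustment took SEC13 past 2-fold at 24 h (1.08), with 0.67 at 48 h, and left SEC31A at 0.76 and 0.02, while median-of-ratios scaling took SEC31A past 2-fold at 24 h.

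All 7 measured COPI coat genes were highest at 24 h, a count that was not made over all genes. Of these genes, 4 were 2-fold higher then, against 2 at 48 h. COPB1, the beta subunit, had 92.2, 70.4, 204, 232, 278 and 228 CPM at 0 h and after 3, 6, 12, 24 and 48 h, 3.02-fold (2.84 to 3.21) at 24 h. COPB2, the beta-prime subunit that recognises dilysine signals on cargo, had 82.2, 88.4, 144, 184, 236 and 173 CPM, 2.87-fold at 24 h. For ARCN1, the delta subunit, the levels were 188, 178, 267, 369.6, 465 and 313 CPM, 2.47-fold at 24 h. COPG, the gamma subunit, had 427, 479, 416, 638, 1001 and 734 CPM, 2.35-fold (2.28 to 2.42) at 24 h, with no difference of that size before 24 h. GC-adjusted changes of these 4 at 24 h ran from 1.05 in ARCN1 to 1.48 in COPG. At 48 h they were 0.61 in COPB1, 0.74 in COPB2, 0.39 in ARCN1 and 1.08 in COPG, so that only COPG was past 2-fold then on that scale. COPE, the epsilon subunit, changed by 0.66 and, with GC adjustment, by 1.26. COPA, the alpha subunit, changed by 0.12 at 24 h and -0.31 at 48 h, or by 0.20 and -0.19 with GC adjustment. COPZ1, the zeta subunit, had 259, 294, 229, 311, 316 and 249.7 CPM, a change of 0.28 at 24 h, or 0.32 with GC adjustment. Its paralog COPZ2 had 13, 9, 2, 7, 3 and 2 counts and was not measured. The stable coat of 7 subunits thus had transcripts that differed between 0.12 and 1.58 in log2 change at 24 h.

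ARF GTPases recruit COPI, and ARFGAP proteins switch them off. ARF1 had 799, 876, 769, 1004, 1175 and 929.7 CPM at 0 h and after 3, 6, 12, 24 and 48 h. Its log2 change was 0.55 at 24 h and 0.22 at 48 h, or 0.94 and 0.62 with GC adjustment. ARF4 had 138, 149.9, 167, 323, 365 and 248 CPM, 2.64-fold (2.51 to 2.78) at 24 h, with 0.91 left after GC adjustment, and 0.17 at 48 h. The ARFGAP genes went apart. ARFGAP3 had 60.5, 49.5, 124, 192, 259 and 203 CPM, 4.29-fold (3.98 to 4.62) at 24 h and 3.35-fold at 48 h. Its GC-adjusted change of 1.92 at 24 h was next in size to that of SEC24D. ARFGAP2 had 102, 119, 88.3, 84.9, 83.2 and 54.8 CPM, and 0.539-fold (0.494 to 0.589) at 48 h was the lowest ratio of any measured member. That gene's change of -0.88 at 48 h was -0.44 after GC adjustment, and its -0.29 at 24 h became 0.17. ARFGAP1 changed by -0.28 at 24 h and -0.38 at 48 h, or by 0.28 and 0.10 with GC adjustment, so its direction depends on that step.

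Among cargo receptors and the SNARE protein SEC22B, 4 of 6 genes were 2-fold higher at 24 h and 2 at 48 h. KDEL receptors return resident proteins that carry that signal. KDELR2 had 140.1, 146, 157, 276, 343 and 286 CPM at 0 h and after 3, 6, 12, 24 and 48 h, 2.45-fold (2.32 to 2.58) at 24 h, and its GC-adjusted change was 1.10 at 24 h and, inside 2-fold, 0.78 at 48 h. KDELR1 had 209.9, 226, 159, 219, 212 and 176 CPM, lowest at 6 h and close to the 0 h level at 24 h. Its change of -0.25 at 48 h was 0.11 with GC adjustment. KDELR3 was low, with 5.99, 7.01, 6.26, 7.19, 9.03 and 10.9 CPM. It changed by 0.52 at 24 h and 0.77 at 48 h, or by 0.69 and 0.98 with GC adjustment. The p24 proteins TMED2 and TMED10 form receptors that cycle in COPI and COPII vesicles. TMED2 had 235, 242, 294, 446, 478 and 443 CPM and TMED10 had 313, 294, 392, 499, 656 and 654 CPM. They were 2.04-fold and 2.10-fold higher at 24 h, and with GC adjustment 0.48 and 0.54 in log2 were left at 24 h and 0.16 and 0.33 at 48 h. SEC22B, which joins vesicle and target membranes, had 63.6, 58.1, 96.7, 121, 136 and 115 CPM. The gene was 2.13-fold higher at 24 h, with GC-adjusted changes of 0.30 at 24 h and -0.34 at 48 h.

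Paralogs counted in 1 library give a ratio that needs no scaling for depth, and 12 pairs were compared. ARFGAP3 had 3.12 counts (95% interval 2.95 to 3.29) for each of ARFGAP2 at 24 h and 3.70 at 48 h, against 0.595 (0.544 to 0.650) at 0 h. The ratio of TRAM1 to TRAM2 counts was 7.27 (6.70 to 7.90) at 24 h and 7.62 at 48 h, against 1.35 (1.21 to 1.51) at 0 h. SEC24D to SEC24C was 0.420 (0.406 to 0.435) at 24 h and 0.345 at 48 h, against 0.0798 (0.0709 to 0.0896) at 0 h. The ratio of ARFGAP3 to ARFGAP2 was 5.24 times its untreated value at 24 h and 6.22 times at 48 h, or 3.41 and 3.93 times with the GC trend of both genes taken out. TRAM1 to TRAM2 was 5.39 and 5.65 times its untreated value, or 2.81 and 2.14 times with the trend taken out. SEC24D to SEC24C was 5.26 and 4.33 times it, or 4.04 and 3.14 times. Among the ARFGAP, TRAM and SEC24D pairs, taking out the GC trend thus moved the TRAM and ARFGAP ratios by more than 1.5 times at both late times. SEC11C to SEC11A was 1.49 at 24 h and 1.63 at 48 h, against 0.453 at 0 h. KDELR2 to KDELR1 was 1.61 at 24 h and 1.63 at 48 h, against 0.667 at 0 h. SAR1B to SAR1A was 0.752 at 24 h and 0.902 at 48 h, against 0.349 at 0 h. With the GC trend taken out, SEC11C to SEC11A was 3.40 times its untreated value at 24 h and 3.75 times at 48 h, KDELR2 to KDELR1 1.70 and 1.60 times, and SAR1B to SAR1A 2.50 and 3.19 times. In these 3 pairs the member past 2-fold gained on its paralog with and without that step. ARF4 to ARF1 was 0.310 at 24 h and 0.266 at 48 h, against 0.172 at 0 h. These were 1.80 and 1.54 times the untreated ratio, but 0.987 and 0.738 times it with the trend taken out, also a large shift. SEC24A to SEC24B moved little, with 1.14 at 24 h and 1.31 at 48 h, against 1.03 at 0 h, and was 0.865 and 0.874 times the untreated ratio with the trend taken out. SEC23A to SEC23B was lower at 24 h (0.202) and higher at 48 h (0.376) than the 0.280 of untreated cells. KDELR3 to KDELR1 was 0.0426 at 24 h and 0.0620 at 48 h, against 0.0286 at 0 h, and COPZ2 had too few counts for a ratio to COPZ1. SEC61A2 to SEC61A1 was 0.0105 at 24 h and 0.0124 at 48 h, against 0.0206 at 0 h. Paralogs differ in length, so a ratio is compared only with itself in other libraries and says nothing of which gene has more transcripts. Where they differ in GC content, comparing libraries does not remove a trend that differs between libraries.

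**Figure D4:**
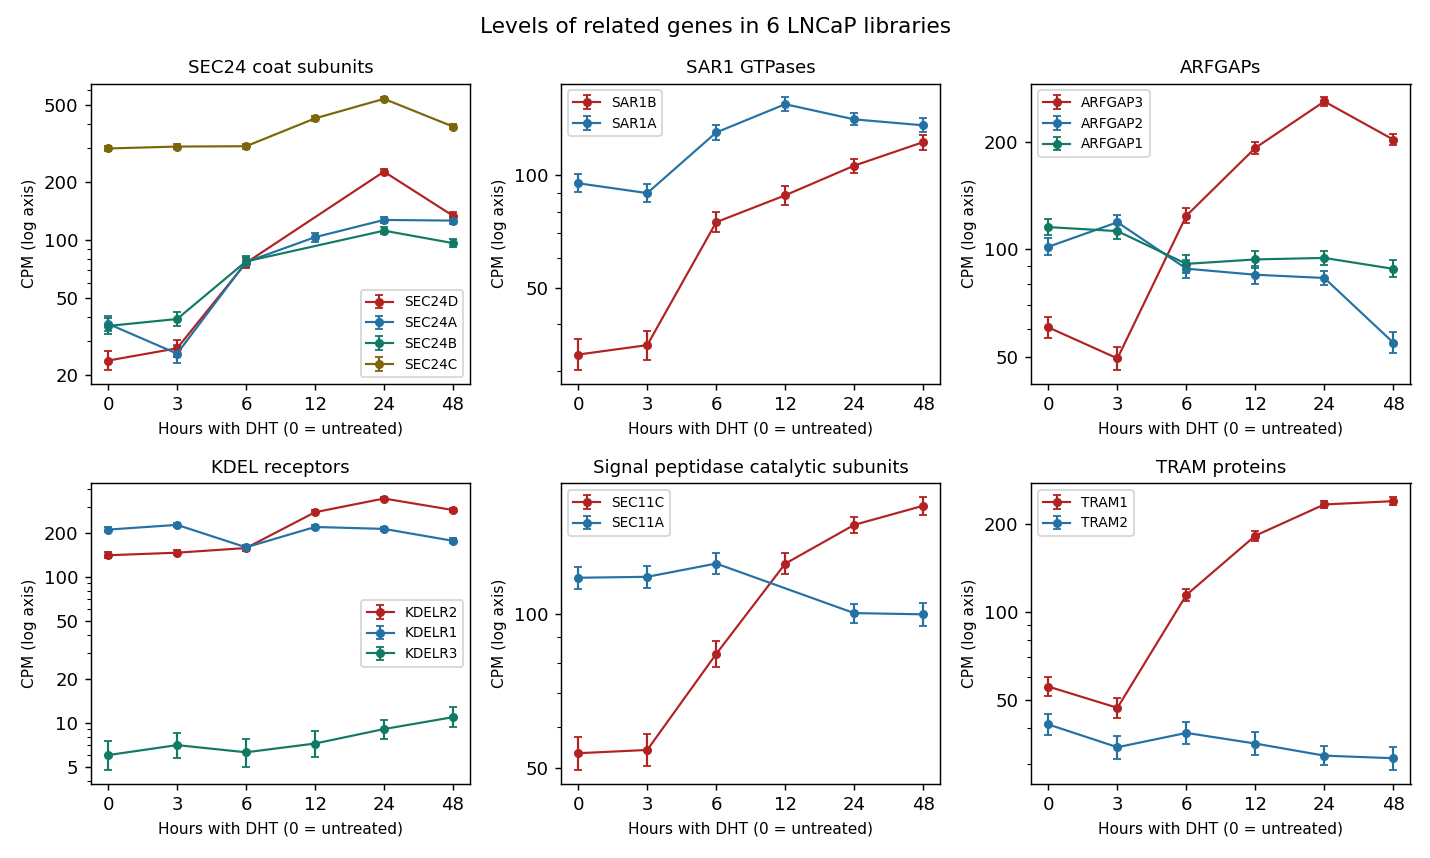
Points give CPM on a log axis in each of the 6 libraries, from untreated 0 h to 48 h with 10 nM DHT, for 6 sets of related genes, with exact 95% Poisson intervals that cover counting error only. Lines join libraries in order of time and pass over 12 h values not used. In CPM, ARFGAP3, KDELR2 and SEC11C lie below a paralog at 0 h and above it at 24 h, when ARFGAP3 has 259 CPM and ARFGAP2 83.2 CPM. CPM is not divided by transcript length. Per kilobase of transcript, KDELR2 was still below KDELR1 at 24 h, with 119 against 136 CPM.

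Genes of this route are known targets of the unfolded protein response factors XBP1 and ATF6 and of related CREB3-type factors. The elements these factors bind include the unfolded protein response element, whose core holds the letters ACGTG. Promoter windows of 300 bases, from 250 before to 50 after the start of a RefSeq transcript (GRCh38.p14), were at hand for 45 of the 52 measured members, in 60 windows. The letters TGACGTGG, the core of the unfolded protein response element, searched on both strands (CCACGTCA is the reverse complement), were in windows of 10 of these 45 members (22.2%). They were in 116 of 9548 genes tested (1.21%), and in 256 of all 35116 windows (0.729%). The 10 genes were SRP19, SSR3, SSR4, SEC23A, SEC24A, COPA, COPB1, COPB2, ARF1 and KDELR3. Members with the letters were 6 of the 24 past 2-fold at 24 h (25%) and 4 of the 21 not past it (19.0%). Windows of 4 changed members with a match are printed 5′ to 3′ on the gene's strand, with the match in capitals, to show where the letters lie. SRP19 is at chr5:112861037-112861336 (plus strand), SEC24A at chr5:134648535-134648834 (plus), COPB1 at chr11:14499762-14500061 (minus) and COPB2, with 2 matches, at chr3:139389631-139389930 (minus).
SRP19: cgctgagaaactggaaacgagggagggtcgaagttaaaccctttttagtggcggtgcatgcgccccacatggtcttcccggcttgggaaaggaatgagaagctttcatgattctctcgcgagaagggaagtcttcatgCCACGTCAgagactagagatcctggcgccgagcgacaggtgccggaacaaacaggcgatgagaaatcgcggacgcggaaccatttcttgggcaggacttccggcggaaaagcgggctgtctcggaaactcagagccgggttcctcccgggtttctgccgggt
SEC24A: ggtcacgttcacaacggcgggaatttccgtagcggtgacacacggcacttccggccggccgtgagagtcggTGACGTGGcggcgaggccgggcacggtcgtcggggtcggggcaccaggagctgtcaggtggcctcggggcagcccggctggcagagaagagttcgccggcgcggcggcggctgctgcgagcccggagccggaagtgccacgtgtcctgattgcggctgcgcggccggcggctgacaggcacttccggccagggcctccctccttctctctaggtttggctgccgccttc
COPB1: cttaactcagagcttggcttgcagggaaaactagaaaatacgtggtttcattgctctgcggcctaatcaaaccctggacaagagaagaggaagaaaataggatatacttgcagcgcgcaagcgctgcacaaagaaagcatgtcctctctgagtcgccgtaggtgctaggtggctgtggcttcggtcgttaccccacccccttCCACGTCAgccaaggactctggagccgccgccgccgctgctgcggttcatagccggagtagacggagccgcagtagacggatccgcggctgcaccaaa
COPB2: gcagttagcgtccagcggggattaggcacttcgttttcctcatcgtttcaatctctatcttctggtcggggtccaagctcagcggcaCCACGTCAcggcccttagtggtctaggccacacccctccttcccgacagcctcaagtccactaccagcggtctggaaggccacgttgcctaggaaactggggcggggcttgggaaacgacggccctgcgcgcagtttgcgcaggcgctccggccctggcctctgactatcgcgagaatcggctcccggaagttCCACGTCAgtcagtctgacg

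None of the 60 windows held the endoplasmic reticulum stress element ERSE, its second form ERSE-II, the cyclic AMP element TGACGTCA or the full androgen response element. Over all windows and both strands, ERSE was in 0.0769%, ERSE-II in 0.0541%, TGACGTCA in 1.85% and the androgen response element in 0.00285%. TGACGTCA and TGACGTGG share their first letters and cannot be the same bases. A match describes letters in a window, and a missing one says only that they are not in those 300 bases.

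Other genes of the early secretory route, on a list chosen with earlier results of these data known, gave the surroundings. Of 73 such genes on the list (oligosaccharyltransferase, other translocation factors, COPII and COPI regulators, further p24 proteins, tethers, SNAREs and transcription factors), 68 were measured. At 24 h 21 of the 68 (30.9%) were 2-fold higher and none lower, against 10.5% and 10.8% of all genes, with a median change of 0.66. At 48 h 17 (25.0%) were higher and 2 lower, against 15% and 7.33% of all genes, with a median of 0.34. With the GC trend removed 15 of 67 (22.4%) were higher at 24 h, against 7.09% of all genes, and 10 (14.9%) higher and 1 lower at 48 h, against 7.15% and 4.82%. By role, the calls at 24 h were 5 of 12 COPII regulators and cargo receptors, 3 of 6 p24 proteins, 3 of 9 oligosaccharyltransferase genes, 6 of 22 tethers and SNAREs, 2 of 5 transcription factors, 1 of 8 other translocation genes and 1 of 6 COPI and ARF regulators. The last 2 shares are near that of all genes, and with the GC trend removed none of the 9 oligosaccharyltransferase genes was past 2-fold.

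ERGIC2, a membrane protein that cycles between the endoplasmic reticulum and the Golgi, had 35.4 CPM at 24 h and 53.1 CPM at 48 h, against 4.25 CPM at 0 h. Its log2 changes were 2.79 and 3.37, or 1.86 and 1.89 after GC adjustment. The p24 proteins TMED5 (2.37 at 24 h and 2.83 at 48 h) and TMED7 (2.20 and 2.37) had larger changes than the members TMED2 and TMED10, and with GC adjustment TMED5 changed by 1.61 and 1.69 and TMED7 by 1.45 and 1.25. LMAN1, the mannose lectin that exports glycoproteins, changed by 1.84 at 24 h and 2.15 at 48 h, and its partner MCFD2 by 1.80 and 1.54. With GC adjustment these were 1.24 and 1.30 for LMAN1 and 1.64 and 1.32 for MCFD2. SEC62, a translocation factor that works with SEC63, changed by 1.66 and 2.12, and inside 2-fold, by 0.85 and 0.89, with GC adjustment. CREB3L4, an androgen-induced transcription factor of the prostate epithelium, had 417 CPM at 24 h and 228 CPM at 48 h, against 90.9 CPM at 0 h. Its GC-adjusted change was 2.47 at 24 h and 1.64 at 48 h, above the unadjusted 2.18 and 1.32. The tether USO1 changed by 1.76 and 1.60 at the 2 times, SCFD1, which acts on SNAREs, by 1.41 and 1.63, and the ARF exchange factor ARFGEF2 by 1.12 and 1.43. RAB1A, a GTPase of this step, changed by 1.33 and 1.19, and STT3B, a catalytic subunit of oligosaccharyltransferase, by 1.16 and 1.31. GC adjustment left 1.12 and 0.68 for USO1, 0.71 and 0.61 for SCFD1, 0.86 and 1.08 for ARFGEF2, 0.63 and 0.16 for RAB1A and 0.73 and 0.72 for STT3B. RAB1A, STT3B, SCFD1 and SEC62 were thus inside 2-fold at both times on that scale, USO1 at 48 h and ARFGEF2 at 24 h. Lower at 48 h were COPG2, the paralog of COPG, by -1.03, and TRAPPC2L, a tether subunit, by -1.01, or by -1.25 and -0.57 with GC adjustment. COPG2 had 27.0 CPM at 48 h, against 56.1 CPM at 0 h, while COPG had 734 CPM at 48 h, against 427 CPM at 0 h. Of the stress response factors, XBP1 changed by 0.85 at 24 h and 0.31 at 48 h, and ATF6 by 0.53 and 0.31, both inside 2-fold. With GC adjustment XBP1 stood just inside 2-fold at 24 h, with 0.999, and ATF6 at 0.08 and, at 48 h, -0.30. Of the other CREB3-type factors, CREB3L2 changed by 1.24 at 24 h and 0.89 at 48 h, or by 1.30 and 0.97 with GC adjustment. CREB3 changed by 0.46 and 0.08, or by 0.88 and 0.50 with GC adjustment, and CREB3L1 was not measured.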

How the data were processed

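RNA was sequenced from 6 LNCaP libraries, 1 per time. Per the labels' protocols, total RNA was sequenced on an Illumina GAIIx after growth in hormone-depleted serum, and the genome build was hg19, per the submitters' processing notes. How reads were aligned and counted, and whether by strand, is not given in the sources used here, so overlapping and antisense genes cannot be told apart. The deposited table held a tag count per RefSeq transcript and library, and beside it an RPM value that the authors scaled to the library's reads, per the file headers. The counts were used, and the authors' RPM denominator was an alternative.

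From 18051 lines 50 exact repeats were removed, leaving 18001 transcripts, of which 16803 (93.3%) were found in a RefSeq table on GRCh38.p14. Counts were added per symbol to 17990 genes and scaled to the total over listed transcripts. Genes with a mean count of at least 20 (11916, and 11070 at 12 h) were compared as log2 of CPM + 1. GC content came from GENCODE v29 transcripts for 11140 genes (93.5%), and its trend was removed by lowess with a span of 0.3. With 1 library per group no test was run, and 2-fold is a mark of size. Intervals are exact 95% Poisson intervals for levels and exact conditional binomial intervals for ratios. They cover counting error only, as does the floor of 3 counts (0.146 to 0.228 CPM). Members, gene lists and settings were chosen with earlier results of these data known. Values in every library are given for members past 2-fold at 24 h or 48 h and for fixed paralog pairs. Of the partner genes, those named are up to 12 with the largest mean change among those past 2-fold at both times, and the factors and lower genes at the end were named after their values were seen. Alternatives were other scalings, pseudocounts of 0.5 and 5, no filter, a mean count of 100 and GC removal. Scripts used Python 3.11.15, pandas 2.3.3, scipy 1.17.1 and statsmodels 0.14.6, and were tested on simulated data.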

Additional observations from a re-analysis of the deposited data

How the results depend on the processing

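No paired analysis was possible because each group is 1 library. With median-of-ratios scaling, 5 members were 2-fold higher at 6 h, the members' median was 0.24 at 6 h and 1.21 at 24 h, and 0 partner genes were 2-fold lower at 48 h. That scaling kept all 29 members called at 24 h and added 5. A pseudocount of 5 also left 0 partner genes lower at 48 h and dropped SPCS2 and SEC23A at 24 h. With the GC trend removed, members 2-fold higher numbered 1 at 6 h, 4 at 12 h and 10 at 48 h, and the medians were 0.16 at 3 h, 0.069 at 6 h, 0.53 at 12 h and 0.61 at 48 h. Partner genes then numbered 10 higher and 1 lower at 48 h. Of the changes past 2-fold, those that turned sign were SRP9 at 48 h (-0.039) and TRAM1 at 6 h (-0.19). Over members of any size of change, the sign turned in 15 at 3 h, 22 at 6 h, 8 at 12 h, 3 at 24 h (SRP9, ARFGAP1 and ARFGAP2) and 6 at 48 h (SRP9, SPCS2, SEC22B, SAR1A, KDELR1 and ARFGAP1). GC removal for paralog ratios was added after seeing the data. Beyond the alternatives' own construction, the cause of these shifts was not tested. Of the single-gene values past 2-fold, GC removal moved 89, left 5 and turned 2. Median-of-ratios scaling moved 36 of 98 and a pseudocount of 5 moved 11. The authors' denominator, a pseudocount of 0.5, no filter and a mean count of 100 moved none of them. No library has a replicate, so the spread between cultures is unknown, and the 12 h values of 6 members were not used.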
